A study of Apis mellifera with 20 samples.

Results

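Honeybee (Apis mellifera) larvae of instar 3 that were being reared as queens carried 184 gene models at clearly higher input levels than larvae of the same instar reared as workers. The 184 were chosen from FPKM values (sequenced fragments scaled to model length and library size) as the authors deposited them. Both input libraries of instar 3 (L3) queens had to reach 5 FPKM, and the lower queen value plus 1 had to be at least 3 times the higher L3 worker value plus 1. The deposited tables hold 15314 gene models, of which 6891 had 5 FPKM or more in both L3 queen inputs. A further 7 models met the same limits and are left out by definition: those on scaffold Group12.10, and GB40614 and GB51494. Because the L3 input values chose the genes, every L3 caste value is a description and carries no test.

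The series holds 20 libraries of larvae: instar 1 (L1, from which either caste can develop), L3 queens and L3 workers, and instar 5 (L5) queens and workers. Each of these 5 kinds has 2 libraries pulled down with an antibody against N6-methyladenosine (IP) and 2 input libraries of fragmented polyadenylated RNA without a pulldown. No genotype, treatment or colony sets the kinds apart in the labels beyond instar and caste, and the labels do not say how many larvae were pooled or whether replicates came from separate collections. P-values therefore measure only the spread between these libraries, which may be technical.

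Queens and workers are female castes that arise from equivalent eggs. The larval diet, with royal jelly fed on throughout to future queens, shifts endocrine signals such as juvenile hormone and sets growth and the later form of the ovary and legs. N6-methyladenosine (m6A) is a methyl mark placed on adenosines in messenger RNA by a methyltransferase complex built around METTL3, and proteins with a YTH domain bind it. In mammals and flies the mark is known to affect splicing, translation and decay of transcripts. The deposited tables name gene models only by GB identifiers, and none of these is paired with a gene name in the reference table at hand, so no function is given to any model here and the tissue could not be checked against marker genes. Coordinates are those of the deposited tables, whose genome build is not given in the sources used here.

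Read depth is unknown, since the tables give FPKM alone. Summed FPKM ran from 512177 to 891050 per library. The L5 inputs listed 4292 to 5430 models at exactly 0, against 2993 to 3822 in the L1 and L3 inputs. In RNA of entire larvae, fewer cells of a type and less RNA per cell cannot be told apart.

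The size of the caste difference at L3 depended on how the libraries were put on a common scale. Median-of-ratios factors over 7511 genes above 1 FPKM in all 10 inputs placed the typical gene 1.64-fold higher in L3 queen than in L3 worker FPKM as deposited. With that factor divided out, 54 of the 184 genes still met the limits, and the median log2 difference of the 184, queens minus workers, was 1.54, with a range of 0.96 to 4.15. The median over all 10391 genes with a mean of at least 1 scaled FPKM was -0.02. Since a ratio of at least 3 was divided by 1.64, no listed gene could turn lower in queens by the scaling.

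At the top of the ratio stood GB52052 and GB46629. GB52052 (Group12.17 plus strand, 658868 to 665683) had 141 and 153 FPKM in L3 queen input, against 4.72 and 5.62 FPKM in L3 worker input. GB46629 (Group11.1 minus strand, 192030 to 195508) had 75.3 and 92.7 FPKM in L3 queen input, against 2.87 and 1.60 FPKM in L3 worker input. Neither gene had a queen value near a worker value. The most abundant member in L3 queen input was GB55232 (Group11.6 plus strand, 1188369 to 1192343), at 2482 and 2287 FPKM in queens, against 402 and 420 FPKM in workers. GB40976 (Group7.20 minus strand, 51855 to 55146) followed with 2059 and 1688 FPKM in queens, against 278 and 303 FPKM in workers, and it was also the second most abundant at L1, at 894 and 1434 FPKM. GB52052 and GB55232 each overlap another model, and the library kit does not mark strand, so their reads cannot be told apart from those of their neighbours.

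Just inside the ratio of 3 lay GB47896 (GroupUn84 plus strand, 26641 to 33973), with 19.97 and 13.5 FPKM in L3 queens and 3.81 and 2.28 FPKM in L3 workers. GB47226 (Group11.16 minus strand, 967953 to 971826) had 14.7 and 11.1 FPKM in queens and 3.00 and 2.94 FPKM in workers. Just outside lay GB47554 (Group16.5 minus strand, 672040 to 674433, overlapping another model), at 52.7 and 47.8 FPKM in queens and 14.1 and 15.3 FPKM in workers. GB41126 (Group8.5 minus strand, 333428 to 344889) also missed it, at 20.3 and 16.2 FPKM in queens and 4.31 and 4.75 FPKM in workers. The genes on the 2 sides of the limit hardly differ, and the boundary of the list is one of degree.

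**Figure D1:**
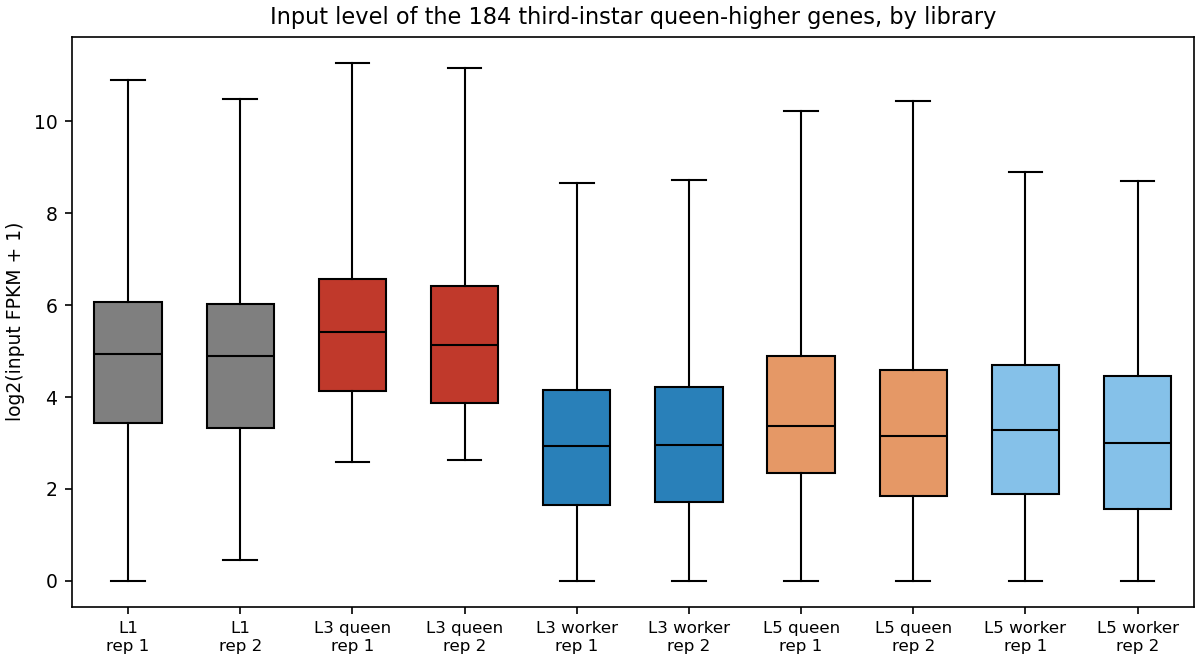
Input level of the 184 genes in each of the 10 input libraries, as log2(FPKM + 1) of the deposited values. Boxes span the quartiles with the median as a line, and whiskers reach the lowest and highest gene. The medians of the L1 and L3 queen libraries lie above those of the L3 worker, L5 queen and L5 worker libraries, while the boxes overlap. The values are not corrected for library scale.

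Over the 5 kinds of larvae, the listed genes had high medians at L1 and in L3 queens and lower ones in the other kinds. The values are as deposited and not corrected for library scale. Among the 6891 models at 5 FPKM or more in both L3 queen inputs, medians were 23.1 FPKM at L1 and 19.4 FPKM in L3 queens. Their medians were 11.7 FPKM in L3 workers, 13.2 FPKM in L5 queens and 12.9 FPKM in L5 workers, so this order is not particular to the list. The median of the 184 genes was 29.9 FPKM at L1 and 36.9 FPKM in L3 queens, against 6.37 FPKM in L3 workers, and it was 8.76 FPKM in L5 queens and 7.503 FPKM in L5 workers (mean of the 2 inputs per gene). Both L1 inputs were at 5 FPKM or more for 160 of the 184 genes, or 87.0%, a smaller share than the 96.5% among the 6891 models at that level in both L3 queen inputs. Both L5 queen inputs reached it for 108 genes, or 58.7%, against 76.0% of the 6891 models. Both L5 worker inputs reached it for 101 genes, or 54.9%, against 76.8% of the 6891 models. In all 5 kinds it was reached by 71 genes. At the other end, 4 genes were under 1 FPKM in both L1 inputs, 13 in both L5 queen inputs and 20 in both L5 worker inputs, with 9 genes under 1 in both L5 castes. Among the 6891 models 0.1596% were that low at L1, 1.70% in L5 queens and 1.65% in L5 workers. Exactly 0 was listed in all 4 L5 inputs for 7 genes. The counts of 71, 9 and 7 genes were not made over the 6891 models, so nothing is read from them about the list.

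The L1 values split the list, again as a description since L3 values enter. In 98 of the 184 genes the lower L1 value plus 1 was at least 3 times the higher L3 worker value plus 1, which held for 8.10% of the 6891 models at 5 FPKM in both L3 queen inputs, and none of these 98 reached 3 times the L1 level in L3 queens. Their L1 median was 46.8 FPKM. The medians at L3 were 39.2 FPKM for queens and 7.30 FPKM for workers, and those at L5 were 7.60 FPKM for queens and 6.75 FPKM for workers. In the deposited values the L3 queen median was near that of L1, and the L3 worker median near those of L5. That L1 and L3 queens both lay well above L3 workers follows from how these genes were chosen. In 20 other genes the lower L3 queen value plus 1 was at least 3 times the higher L1 value plus 1, as it was in 1.77% of the 6891 models. The low L3 worker and high L3 queen values that define the list enter both counts, so nothing is read from these shares. The L1 median of these was 6.14 FPKM. At L3 their queen median was 57.7 FPKM and their worker median 4.99 FPKM, and at L5 these were 12.08 and 15.7 FPKM for queens and workers. The remaining 66 genes met neither limit, with medians of 14.7 FPKM at L1, 28.8 in L3 queens and 5.85 in L3 workers. In the deposited values the typical gene was 1.997-fold higher at L1 than in L3 workers, and the count of 98 was not corrected for it. On scaled values 25 of the 98 genes, 15 of the 20 and 14 of the 66 still met the caste limits at L3.

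**Figure D2:**
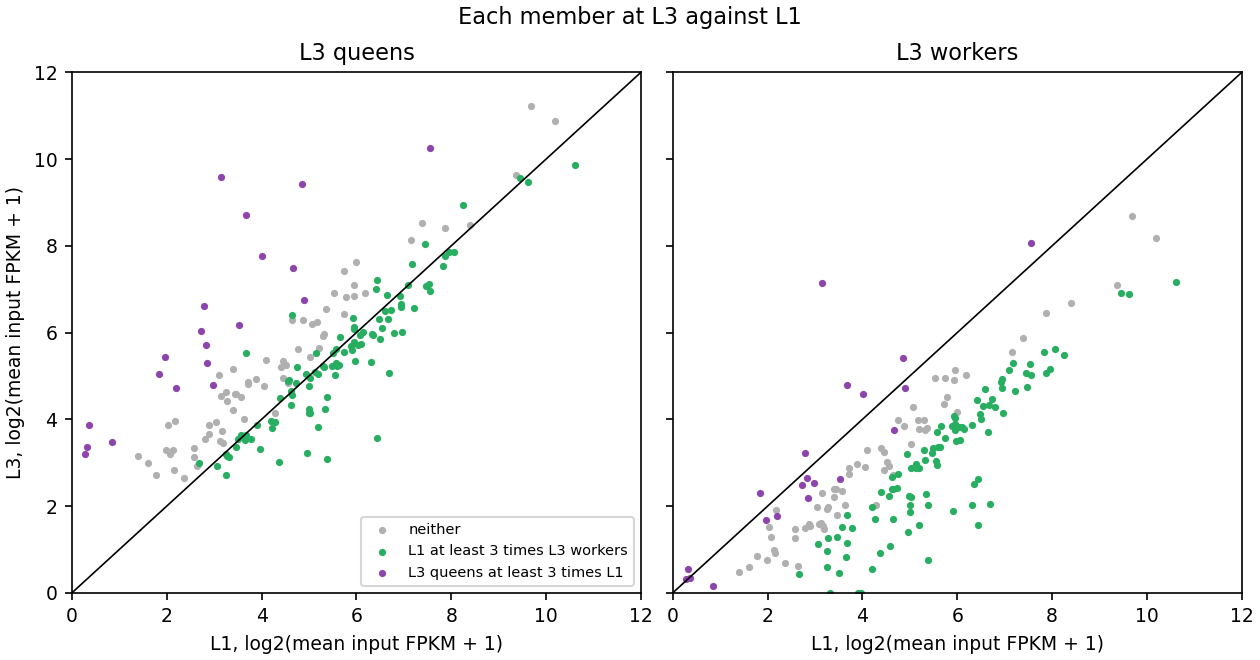
Mean input of each of the 184 genes in L3 queens (left) and L3 workers (right) against L1, as log2(mean FPKM + 1). The line marks equal levels. Green points are the 98 genes at least 3-fold higher at L1 than in L3 workers, purple points the 20 at least 3-fold higher in L3 queens than at L1, and grey points the other 66. Green points lie close to the line in queens and below it in workers.

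GB52571 (GroupUn74 minus strand, 24979 to 26505) was the most abundant member at L1 and belongs to the larger group. It had 1910 and 1230 FPKM at L1, 1125 and 740 FPKM in L3 queens, 137 and 149 FPKM in L3 workers, 20.01 and 6.31 FPKM in L5 queens and 95.1 and 31.4 FPKM in L5 workers. Its queen values thus stood between those of L1 and of workers at L3, and its lowest values were those of L5 queens. GB48173 (Group7.24 plus strand, 738947 to 740980) had 110 and 94.4 FPKM at L1, 31.1 and 33.8 FPKM in L3 queens and 3.35 and 2.98 FPKM in L3 workers. At L5 it had 0.358 FPKM and a value listed at 0 in queens, and 0.134 FPKM and a value listed at 0 in workers. GB46629, with 16.7 and 31.4 FPKM at L1, had 18.4 and 22.8 FPKM in L5 queens and 15.4 and 17.8 FPKM in L5 workers, so the L3 worker values of this gene lay below every other input.

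Among the 20 genes that were higher in L3 queens than at L1, GB43005 (Group1.16 minus strand, 325213 to 408524) had 7.24 and 8.36 FPKM at L1, 721 and 820 FPKM in L3 queens and 153 and 126 FPKM in L3 workers. At L5 it had 50.3 and 92.4 FPKM in queens, against 213 and 275 FPKM in workers. GB53288 (GroupUn113 plus strand, 32077 to 38706) had 25.3 and 23.6 FPKM at L1, 203 and 152 FPKM in L3 queens, 13.96 and 10.8 FPKM in L3 workers, 281 and 294 FPKM in L5 queens and 81.3 and 94.8 FPKM in L5 workers. In GB43005 the L3 values of both castes lay above those of L1, while the L3 worker values of GB53288 lay below them. GB41096 (Group6.9 plus strand, 81829 to 95728, overlapping another model) had 0.204 and 0.365 FPKM at L1, 15.7 and 11.7 FPKM in L3 queens and 0.250 and 0.301 FPKM in L3 workers. At L5 it had 159 and 294 FPKM in queens, against 477 and 376 FPKM in workers, so that among the L3 inputs it was above 1 FPKM in queens alone, and at L5 it was abundant in both castes.

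**Figure D3:**
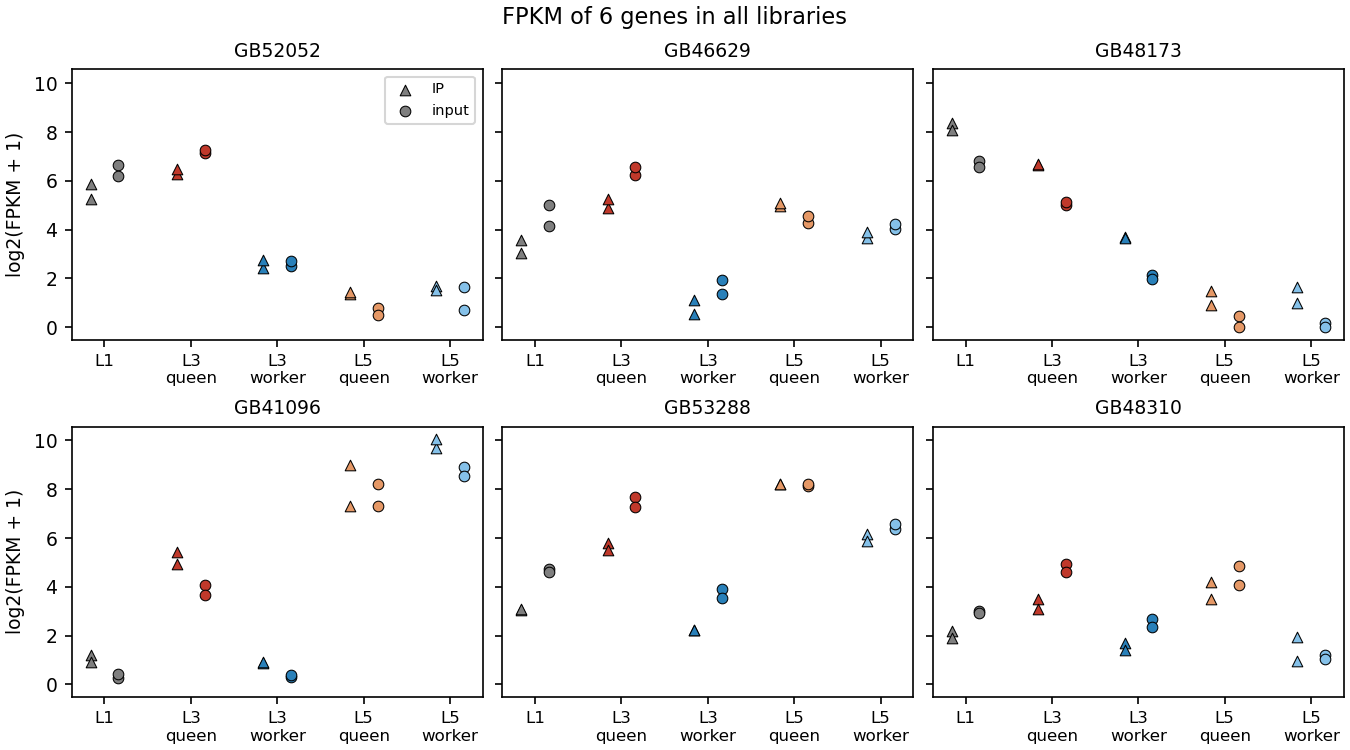
Values of 6 genes in all 20 libraries, as log2(FPKM + 1), with triangles for IP and circles for input in each kind of larvae. In each gene the L3 queen points lie above the L3 worker points. The L5 levels range from at most 2.15 FPKM in GB48173 and 2.23 FPKM in GB52052 to between 157 and 1073 FPKM in GB41096.

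L5 castes were tested on libraries that the choice of genes had not used. Of the 184 genes, 167 passed the limit on low values (a mean of at least 1 FPKM after scaling over the 4 L5 inputs), and 17 were not tested. At L5, 5 of the 167 genes were higher in queens and 1 was lower (limma on log2(scaled FPKM + 1), Benjamini-Hochberg adjusted p under 0.05). Over all 9502 genes tested, 0.81% were called, 0.2% higher and 0.61% lower in L5 queens. The median log2 difference of the 167 genes, L5 queens minus L5 workers, was 0.08 (quartiles -0.53 and 0.60), against 0.03 over all genes tested (quartiles -0.41 and 0.39). On scaled values both L5 queen inputs lay above both L5 worker inputs in 48 of the 167 genes (22.9% of all genes tested) and below them in 41 (22.1% of all genes tested). By the limit of 3 that chose the list, 10 of the 184 genes were higher in L5 queens (0.673% of all models) and 2 in L5 workers (0.875% of all models).

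GB48310 (GroupUn94 plus strand, 32111 to 36037) had 28.0 and 15.9 FPKM in L5 queens, against 1.28 and 1.03 FPKM in L5 workers. Its log2 difference was 3.31 ± 0.37 SE (n = 2 and 2, adjusted p = 0.0380 by limma). GB55997 (Group3.1 minus strand, 354277 to 440232, overlapping another model) had 28.9 and 21.6 FPKM in L5 queens, against 3.37 and 2.69 FPKM in L5 workers, which is a log2 difference of 2.63 ± 0.30 SE (n = 2 and 2, adjusted p = 0.0380 by limma). Both genes were higher in queens at both instars, and GB55997 had higher queen values at L5 than at L3, where it had 6.09 and 7.82 FPKM in queens and 0.537 and 0.167 FPKM in workers. The reverse caste order appeared in GB50609 (Group15.14 plus strand, 1297602 to 1300364), with 17.0 and 8.50 FPKM in L5 queens, against 78.5 and 90.5 FPKM in L5 workers. Its log2 difference was -2.78 ± 0.37 SE (n = 2 and 2, adjusted p = 0.0469 by limma), while at L3 it had 48.9 and 47.7 FPKM in queens and 14.6 and 15.0 FPKM in workers. The other 3 called genes are named because they are so few, after their values were seen. The most abundant, GB55232, had 1196 and 1382 FPKM in L5 queens, against 243 and 239 FPKM in L5 workers, which is a log2 difference of 2.34 ± 0.23 SE (n = 2 and 2, adjusted p = 0.0315 by limma). GB48175 had 227 and 153 FPKM in L5 queens, against 44.98 and 41.7 FPKM in L5 workers, and GB40218 had 120 and 135 FPKM in L5 queens, against 35.5 and 27.5 FPKM in L5 workers. At L3 all 3 were likewise higher in queens, as the rule requires. None of the 6 calls held with a pseudocount of 0.1 or without the limit on low values, where 0.0316% and 0.0167% of all genes tested were called. All 6 held on FPKM as deposited, where 8 listed genes and 0.82% of all genes tested were called. They also held with replicate number as a block, where 22 listed genes and 4.45% of all genes tested were called. Once any 1 of the 4 libraries was left out, the 6 calls were lost, as were the calls of all other genes tested. Such fits leave 1 library for a caste, and the loss is not particular to these 6 genes.

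Against L1, more of the listed genes fell than rose in both L5 castes. In L5 queens 85 of 183 genes tested were lower than at L1 and 26 higher (limma on 6 inputs of L1 and L5, adjusted p under 0.05), where 19.4% of all 10145 genes tested were lower and 14.4% higher. In L5 workers 85 of 183 were lower and 25 higher, where 19.1% of all genes tested were lower and 14.8% higher. Among the 6882 tested genes with at least 5 FPKM in both L3 queen inputs, 22.4% were lower for L5 queens and 21.4% for L5 workers. The median log2 difference of the listed genes was -1.20 for L5 queens minus L1 and -1.24 for L5 workers minus L1, against -0.15 and -0.16 over all genes tested. The L1 libraries are shared by both comparisons. Without L1 replicate 1 or 2 the called genes numbered 43 and 34 in L5 queens, in place of 111, and 39 and 33 in L5 workers, in place of 110. Calls over all genes tested fell alongside, to 9.90% and 6.72% for L5 queens, in place of 33.8%, and to 8.69% and 6.84% for L5 workers, in place of 34.0%.

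GB41096 rose most in both castes, by a log2 difference of 7.70 ± 0.33 in L5 queens and 8.74 ± 0.33 in L5 workers over L1 (SE, n = 2 and 2, limma adjusted p = 5.01e-05 and 2.74e-05). GB53288 rose by 4.19 ± 0.21 log2 units in L5 queens over L1 (SE, n = 2 and 2, limma adjusted p = 8.41e-05). GB43005 rose by 5.51 ± 0.37 in L5 workers over L1 (SE, n = 2 and 2, limma adjusted p = 2.69e-04). In the other direction, GB52571 fell in L5 queens, with a log2 difference of -6.26 ± 0.60 to L1 (SE, n = 2 and 2, limma adjusted p = 1.03e-03). GB42625 (Group9.10 minus strand, 2708354 to 2711208) had 3.595 and 0.270 FPKM in L5 workers, against 402 and 923 FPKM at L1, a log2 difference of -7.36 ± 0.93 SE (n = 2 and 2, adjusted p = 2.83e-03 by limma). The call of GB42625 was lost without L1 replicate 2, at an adjusted p of 0.0573. GB48173 was among the 2 lowest in both castes, with log2 differences to L1 of -5.94 ± 0.34 in L5 queens and -6.08 ± 0.34 in L5 workers (SE, n = 2 and 2, limma adjusted p = 1.37e-04 and 1.40e-04).

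**Figure D4:**
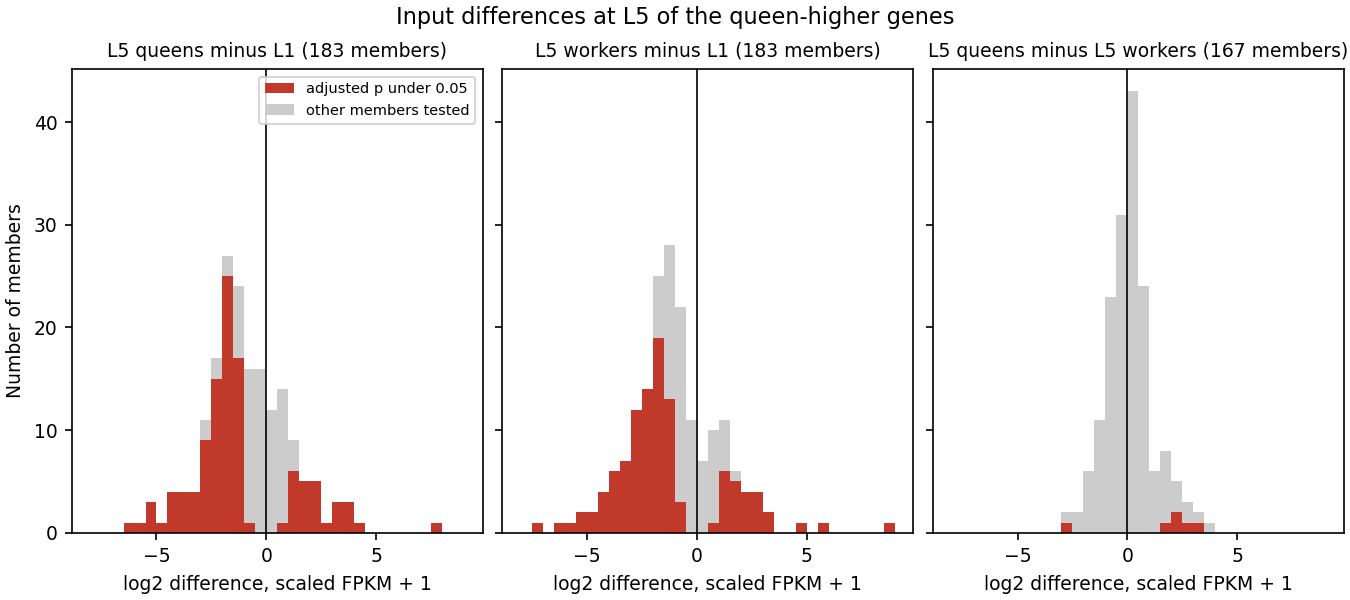
Log2 differences in input for L5 queens minus L1, L5 workers minus L1 and L5 queens minus L5 workers, as counts of listed genes in steps of 0.5 on log2(scaled FPKM + 1). Red marks genes past the limma adjusted p of 0.05 and grey the rest. The first 2 panels are shifted to negative values (medians -1.20 and -1.24), and the third is centred near 0.

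The pulldown was described as the log2 ratio of IP to input, which is that of entire gene models and is set against the typical gene by the scaling. No control pulldown without the m6A antibody was analysed here, so the ratio is not a measured m6A level. The IP libraries of L3 come from the same kinds of larvae as the inputs that chose the genes. A higher queen level in them repeats the contrast of the rule, so nothing is read from the IP counts that follow. On scaled values both L3 queen IP libraries lay above both L3 worker IP libraries in 179 of the 184 genes, where 34.5% of all 10391 genes did. The limits of the rule applied to IP were met by 102 of the 184 genes (0.868% of all models met them). GB52052, for example, had 77.1 and 88.2 FPKM in L3 queen IP and 4.34 and 5.85 FPKM in L3 worker IP.

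The median log2 ratio of IP to input over the 184 genes was 0.03 for L1. It was -0.05 for queens and 0.14 for workers of L3, and 0.15 for queens and 0.08 for workers of L5. Over all 10391 genes the medians were 0.00, -0.0033, -0.03, 0.11 and 0.09 in the same order. A gene picked for a high queen input and a low worker input has its queen ratio pulled down and its worker ratio pulled up by the choice, so the L3 medians carry no caste comparison. Within the list the ratio varied far more, at L1 for example between -2.33 and 4.11. Across the 184 genes the ratio at L1 correlated with the L3 queen ratio at r = 0.963, the L3 worker ratio at 0.943, the L5 queen ratio at 0.393 and the L5 worker ratio at 0.591, and over all 10391 genes the values were 0.961, 0.952, 0.374 and 0.565. Genes are not independent replicates and the factors are shared by all libraries, so these values are descriptions.

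At L1, 60 of 182 genes tested were higher in IP and 39 lower (limma on the 4 L1 libraries, adjusted p under 0.05). Over all 10499 genes tested 49.2% were called, 25.4% higher and 23.8% lower. With replicate number as a block the listed genes split into 75 higher and 75 lower, with 75% of all genes called. The excess of higher calls is thus tied to the fit without a block, and the labels do not say whether equal replicate numbers share a source. When the libraries were left unscaled, the typical gene had a log2 ratio of -0.55. The split among the 181 listed genes tested then became 35 higher and 83 lower, with 60.6% of all genes called. The directions of these calls are thus relative to the typical gene. Without L1 input replicate 1 the called genes numbered 58, in place of 99, and calls over all genes tested were 26.3%, in place of 49.2%. GB52715 (Group14.14 minus strand, 494365 to 494683), a model of 319 bases, had 154 and 140 FPKM in L1 IP, against 14.7 and 9.52 FPKM in L1 input, a log2 ratio of 4.12 ± 0.21 SE (n = 2 and 2, adjusted p = 1.19e-03 by limma). GB54410 (Group6.6 minus strand, 119463 to 120254) had 259 and 203 FPKM in L1 IP, against 40.1 and 30.1 FPKM in L1 input, a log2 ratio of 3.30 ± 0.16 SE (n = 2 and 2, adjusted p = 1.19e-03 by limma).

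The strongest depletion at L1 was seen in GB43056 and GB43350. GB43056 (GroupUn1252 minus strand, 38 to 760) had 32.1 and 24.8 FPKM in L1 IP, against 278 and 189 FPKM in L1 input, a log2 ratio of -2.37 ± 0.19 SE (n = 2 and 2, adjusted p = 1.94e-03 by limma). GB43350 (GroupUn2870 plus strand, 566 to 1266) had 35.9 and 26.3 FPKM in L1 IP, against 292 and 199 FPKM in L1 input, a log2 ratio of -2.32 ± 0.20 SE (n = 2 and 2, adjusted p = 2.10e-03 by limma). Their inputs were close in L3 queens too, at 240 and 196 FPKM for GB43056 and 251 and 207 FPKM for GB43350. Both are short models on unplaced scaffolds, and whether they are near-identical copies that share reads was not checked, since no sequence of the files' build was used here.

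The genes called at L1 kept their side in the L3 libraries and moved toward 0 at L5. The 60 genes higher in IP at L1 had a median log2 ratio of 1.35 at L1. At L3 it was 1.30 for queens and 1.28 for workers, and at L5 it was 0.40 for queens and 0.50 for workers. All 60 had a ratio above 0 in both L3 castes, as had 46 in queens of L5 and 50 in workers of L5. The 39 lower genes had medians of -1.002, -1.14, -1.09, -0.19 and -0.44 in the same order, and none of them had a ratio above 0 at L3, whereas 12 did in queens and 7 in workers of L5. The L1 value of either group is part of how it was chosen. The same counts were not made for all genes called at L1, so nothing is read from them about the list. Over all 10391 genes the L1 ratio correlated with the L3 queen ratio at 0.961 and with the L3 worker ratio at 0.952. A correlation does not show how far ratios lie from 0. The quartiles of the ratio over the same 10391 genes were -0.59 and 0.74 at L1. They were -0.18 and 0.45 for L5 queens, and -0.30 and 0.53 for L5 workers. A narrower range of ratios at L5 than at L1 is thus not particular to the listed genes.

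**Figure D5:**
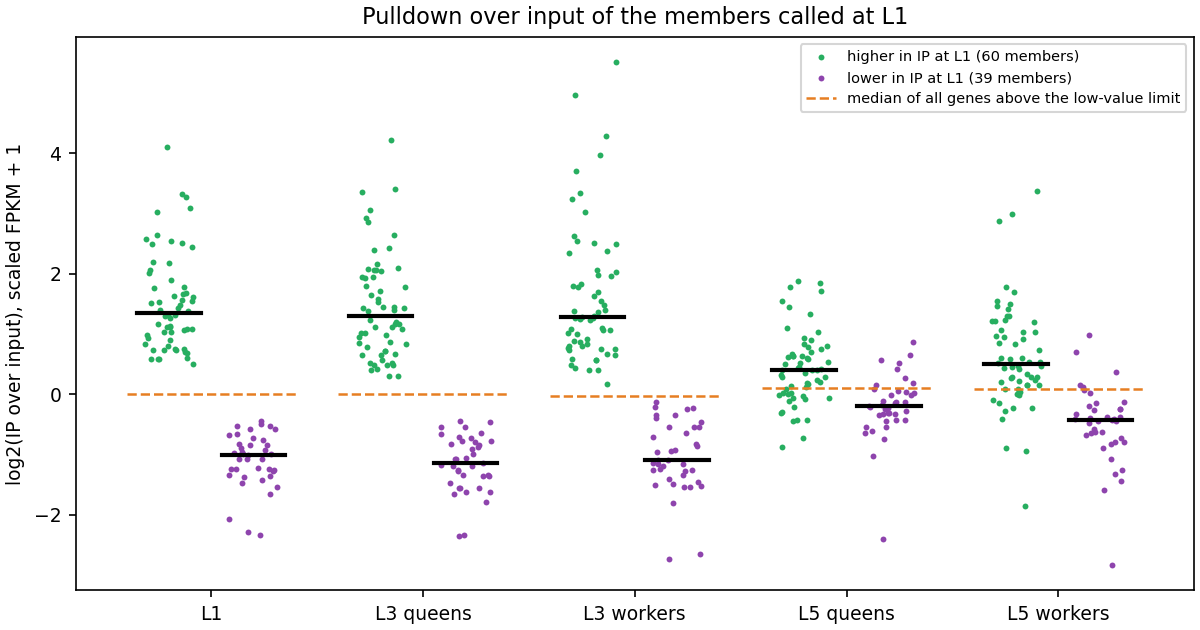
Log2 ratio of IP to input on scaled FPKM + 1 in the 5 kinds of larvae, for the 60 listed genes called higher in IP at L1 (green) and the 39 called lower (purple). Each point is a gene (mean of 2 IP minus mean of 2 input libraries), black bars are medians, and the dashed line is the median of all 10391 genes. Both groups lie apart at L1 and L3 and draw together at L5.

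At L5, IP and input were compared in 175 of the 184 genes (limma on 8 libraries of L5). In L5 queens 0 genes passed, and over all 10182 genes tested 0% did. At an unadjusted p under 0.05 there were 17 of the 175, 13 higher and 4 lower in IP, which is 9.71%, against 8.98% of all genes tested. The gene farthest above 0 in L5 queens, GB46585 (Group2.15 minus strand, 743389 to 744786), had 7.32 and 3.81 FPKM in L5 queen IP, against 1.18 FPKM and a value listed at 0 in L5 queen input, and it did not pass (limma adjusted p = 0.232). In L5 workers 1 gene passed as higher (0.167% of all genes tested) and 1 as lower (0.0982%), where 0.265% of all genes passed in either direction. The lower one, GB50239 (Group15.19 plus strand, 2320613 to 2325845, overlapping another model), had 34.2 and 25.02 FPKM in L5 worker IP, against 221 and 152 FPKM in L5 worker input, a log2 ratio of -2.80 ± 0.35 SE (n = 2 and 2, adjusted p = 0.0428 by limma). In L5 queens it had 43.2 and 58.7 FPKM in IP, against 188 and 370 FPKM in input, and missed the threshold there (limma adjusted p = 0.0883). Its adjusted p in L5 workers rose to between 0.0747 and 0.465 when an L5 worker library or an L5 queen IP library was left out.

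The gene higher in L5 worker IP was GB50446 (Group4.9 plus strand, 13135 to 13316), a model of 182 bases. It had 5.64 and 9.14 FPKM in L5 worker IP, where both inputs were listed at 0 (limma adjusted p = 0.0453), and it no longer passed at a pseudocount of 0.1 (adjusted p = 0.0580) or without any 1 of the L5 worker or L5 queen IP libraries. In L3 worker IP it had 29.2 and 29.2 FPKM, again with both inputs listed at 0, so its place in the list rests on an input value of 0 in workers. In L3 queens it had 73.8 and 64.6 FPKM in IP, against 7.25 and 8.26 FPKM in input.

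The caste difference of the L5 ratio, queens minus workers, passed for 0 of the 175 genes (0% of all 10182 tested, limma adjusted p under 0.05), and 6 had an unadjusted p under 0.05, or 3.43%, against 2.96% of all genes tested. The member farthest above 0 was GB55807 (Group3.8 plus strand, 294907 to 295499), at 2.22 ± 1.18, and the one farthest below was GB52490 (Group2.17 plus strand, 1029979 to 1031028, overlapping another model), at -2.34 ± 0.86 (SE of 8 libraries, limma adjusted p = 1.00 for both). In each of them 1 L5 input library was listed at 0.

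The 184 genes were spread over 101 scaffolds of 1653, with at most 6 on a scaffold. They numbered 103 on the plus and 81 on the minus strand. Their genomic span had a median of 3612.5 bases, against 3282 over the 10391 genes with a mean of at least 1 scaled FPKM. Another model was overlapped by 30 of them, or 16.3%, against 21.8% of all models. The share of models on the list was highest in linkage group 6, at 25 of 909 models or 2.75%, and lowest on unplaced scaffolds, at 12 of 2029 or 0.591%. The whole list is 184 of 15314 models. Models too low to be listed count in these shares, and differences between linkage groups were not tested.

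In 14 places adjacent models were all on the list, 12 of them pairs and 2 of them runs of 3, which together held 30 of the 184 genes. No count of such runs was made for other sets of models, so nothing is read about clustering. On Group11.20 (772556 to 788965) GB43093 had 37.7 and 40.9 FPKM in L3 queens and 8.44 and 8.44 FPKM in L3 workers. Next to it GB43224 had 15.7 and 13.3 FPKM in queens, against a value listed at 0 and 0.950 FPKM in workers, and it was listed at 0 in all 4 L5 inputs. The last of this run, GB43225, had 43.0 and 65.3 FPKM in queens and 11.8 and 13.0 FPKM in workers.

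The run on Group6.36 (240102 to 258668) held GB42378, GB42352 and GB42351, which differed in level and in the pulldown. GB42351 had 259 and 299 FPKM in L3 queen input and 50.4 and 41.0 FPKM in L3 worker input. It was higher in IP at L1, with 885 and 596 FPKM in L1 IP, against 166 and 117 FPKM in L1 input. GB42352 had 39.0 and 34.5 FPKM in L3 queens and 7.94 and 8.63 FPKM in L3 workers, and its L1 IP values of 91.6 and 83.7 FPKM stood against 43.6 and 43.3 FPKM in L1 input. GB42378 had 26.9 and 32.0 FPKM in L3 queens and 6.64 and 6.93 FPKM in L3 workers, with 10.8 and 7.48 FPKM in L1 IP, against 14.9 and 12.8 FPKM in L1 input. In this run the models thus shared a caste difference at L3, while their ratios at L1 ran from near the typical gene to about 3 log2 units above it.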

How the data were processed

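Polyadenylated RNA of larvae was fragmented and sequenced as m6A pulldown (IP) and input, per the labels' protocols, with a kit that does not mark strand. HISAT2 2.1.0 is named in the submitters' processing notes, while no source used here names the program behind the FPKM values, the build or the gene models. The deposited files give 1 FPKM value per gene model and library, made by the authors, with no counts, so the depth per sample and its counting error are unknown. None of the GB identifiers matched the reference gene table, so no gene names or sequences are shown.

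Groups were taken from the library titles. Each library was scaled by its median-of-ratios factor, taken over genes above 1 FPKM in every library used. Tests used limma 3.58.1 in R 4.3.3 on log2(scaled FPKM + 1) with a trended variance, over genes with a mean of at least 1 scaled FPKM in the libraries of the fit. P-values were adjusted by Benjamini-Hochberg over all genes tested, with a threshold of 0.05. Fold changes on this scale understate the change of low genes. L3 libraries, which chose the genes, entered none of the tests of the report and 1 alternative, the fit with all larvae. L5 queens were compared with L5 workers on the 4 L5 inputs, and both with L1 on the 6 L1 and L5 inputs. IP was compared with input on the 4 L1 libraries and on the 8 L5 libraries, with the caste difference of the ratio as an interaction. The fits were tested on simulated data.

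The genes and lists were chosen with earlier results of these data known. Named genes are the 2 highest and 2 lowest called members per comparison (where none was called, the member farthest in that direction), the 2 highest and 2 lowest ratios of the rule, the 2 models just outside it, the 2 most abundant in L3 queens and at L1, and the longest runs of neighbours. Alternatives were a pseudocount of 0.1, no limit on low values, FPKM as deposited, a replicate block, all larvae in 1 fit and each library left out.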

Additional observations from a re-analysis of the deposited data

Results flagged for a closer look

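For 8 of the 30 named genes both L5 worker inputs, as deposited, lay above both L5 queen inputs, the opposite of the order at L3 by which the genes were chosen. Since the L3 libraries chose the genes, the difference between the instars was not tested. The log2 differences, L5 queens minus L5 workers, were -2.78 in GB50609, -2.24 in GB52571, -1.88 in GB43005, -1.21 in GB43056, -1.04 in GB41096, -1.03 in GB43350, -0.63 in GB42351 and -0.43 in GB43225. The limma test at L5 called GB50609 alone among the 8 (adjusted p = 0.0469). On FPKM as deposited this order held in 38 of the 184 listed genes, or 20.7%. It held in 19.8% of the 6891 models at 5 FPKM in both L3 queen inputs and in 13.0% of all models. On scaled values it held in 41 of the 167 listed genes tested, or 24.6%, and in 22.1% of all genes tested. Nothing is read from the count of 8. GB50609 was named for this direction.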

How the results depend on the processing

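The number of genes that meet the rule was 978 at a ratio of 2, 78 at a ratio of 4 and 54 on scaled FPKM, in place of 184, and 235 to 414 with 1 L3 library left out, 414 being without L3 queen replicate 2. The 6 calls between the L5 castes became 0 with a pseudocount of 0.1 (0.0316% of all genes called, in place of 0.81%). They also became 0 without the limit on low values (0.0167% of all genes called). On FPKM as deposited 8 were called, the 6 among them (0.82% of all genes called). With 1 library left out, which leaves 1 library for a caste, the 6 were lost, as were the calls of all other genes tested. Calls against L1 ran from 34 to 112 in L5 queens and from 33 to 125 in L5 workers with 1 library left out, where 6.72% to 34.2% and 6.84% to 38.9% of all genes were called. On FPKM as deposited, where the median of all genes shifted to -0.78 and -0.86 log2 units, they split into 19 higher and 113 lower in L5 queens and 18 higher and 123 lower in L5 workers, with 47.2% and 48.8% of all genes called. IP calls at L1 ran from 58 to 80 with 1 library left out (26.3% to 40.9% of all genes). IP calls in L5 queens, 0 in the fit described, were 3 without the limit on low values (1.14% of all genes). In L5 workers, in place of 2, they were 1 with a pseudocount of 0.1 (0.334% of all genes), 5 without the limit (2.51%) and 0 to 4 with 1 library left out (0% to 1.40%). The fit with all larvae takes in the L3 libraries that chose the genes, also for the limit on low values, which all 184 then passed. It called 36 between the L5 castes (11.4% of all genes), 8 for IP in L5 queens (3.62%) and 36 for IP in L5 workers (16.8%), and nothing is read from these counts. The caste difference of the ratio gave 0 calls among these genes in every setting run. Of 228 values of named genes under alternatives, 193 kept their side of the threshold, 32 lost and 3 gained a call. Among values called in the fit described or in the alternative, 0 reversed direction. Any uncalled values that changed sign count among the 193. Settings in which a gene failed the limit on low values are not among the 228. The causes were not tested, and fits with fewer libraries have fewer degrees of freedom.

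Replicate numbers are shared by the labels but not said to mark a shared source. Deviations of libraries with the same number correlated at 0.163 between L5 castes, 0.622 between IP and input at L1, 0.423 in L5 queens and 0.073 in L5 workers. With the replicate block the calls between L5 queens and L5 workers were 22, of which 13 were higher and 9 lower (4.45% of all genes), and 150 for IP at L1, 75 higher and 75 lower (75% of all genes), in place of 60 higher and 39 lower.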
